A study of Homo sapiens with 24 samples.

Results

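The genes described here, counted in PANC-1, a line of human pancreatic ductal adenocarcinoma cells, serve protein folding in the endoplasmic reticulum or the stress response of that organelle. They are HSPA5, HSP90B1, PDIA4, PDIA6, CALR, CANX, DNAJB9, SDF2L1, XBP1 and HERPUD1. The members were taken by symbol, 10 of the 54583 genes in the count table. All 10 were among the 12058 genes that had at least 1 read in every library and were tested. Plates of PANC-1 cells received DMSO, the solvent control, or 40 µM CID661578 or 5 µM cercosporamide for 6 h, with 4 replicates of each treatment. MNK2 is one of the kinases that bind eIF4G and phosphorylate the cap-binding protein eIF4E. Cercosporamide served as a known inhibitor of its kinase activity, and CID661578 as a compound directed at MNK2 that the study does not class as an inhibitor of that activity. From each of the 12 plates, total cytosolic RNA and polysome-associated RNA, the mRNA carrying several ribosomes, were sequenced separately, which gave 24 libraries in 6 groups. The cells are a single tumour line with no genetic change introduced by the study, and the concentrations of the compounds differ, so a difference between compounds is also a difference in dose.

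Secreted and membrane proteins fold in the lumen of the endoplasmic reticulum with the help of an Hsp70 and an Hsp90 (BiP, encoded by HSPA5, and GRP94, encoded by HSP90B1), of lectin chaperones that hold glycoproteins (calreticulin and calnexin, from CALR and CANX), of protein disulfide isomerases (PDIA4 and PDIA6) and of co-chaperones such as ERdj4 (DNAJB9) and SDF2L1. When unfolded proteins accumulate, the sensors ATF6, IRE1 and PERK raise the transcription of these genes and lower general translation. IRE1 splices the mRNA of XBP1, a transcription factor of this response, and HERPUD1 encodes a membrane protein that helps to assemble the machinery of endoplasmic reticulum-associated degradation. Secretory pancreatic cells are known for their dependence on this system.

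The promoters of several of these genes hold short elements by which the response is known to act on transcription, and they are shown as a feature of the list. In the tests of total RNA given further on, 0 of the 10 genes passed with either compound. The members that passed did so in tests of polysome-associated RNA or of its ratio to total RNA. Transcription itself was not measured. RefSeq promoters of GRCh38.p14, from 250 bases before to 50 bases after the start site, were searched on both strands for the endoplasmic reticulum stress element ERSE (CCAAT and CCACG with 9 free bases between them), for ERSE-II (ATTGG, 1 free base and CCACG) and for the core of the unfolded protein response element (TGACGTGG). In the matches below the defined letters are in capitals and the free positions in lower case.
HSPA5, chr9:125241391-125241409, minus strand: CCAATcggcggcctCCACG
HSP90B1, chr12:103930216-103930234, plus strand: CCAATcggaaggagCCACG
HSP90B1, chr12:103930321-103930339, minus strand: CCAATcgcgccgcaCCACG
CALR, chr19:12938384-12938402, minus strand: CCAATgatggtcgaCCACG
CANX, chr5:179698778-179698796, plus strand: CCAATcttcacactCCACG
XBP1, chr22:28800603-28800621, minus strand: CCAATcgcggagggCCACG
SDF2L1, chr22:21642114-21642124, minus strand: ATTGGtCCACG
HERPUD1, chr16:56932025-56932035, plus strand: ATTGGgCCACG
ERSE was found in 5 of the 10 promoters and in 22 of 27305 promoters of all genes (0.0806%). ERSE-II was found in 2 of the 10, SDF2L1 and HERPUD1, and in 15 of 27305 (0.0549%). No promoter of the 10 held both elements. The core of the unfolded protein response element matched none of the 10 and 217 of 27305 promoters (0.795%). Among the 113 other genes of the endoplasmic reticulum lists described further on that had a promoter, 2 held ERSE. A match is a match of letters, and binding was not measured. The 27305 promoters include the 10, and the elements were chosen as known elements of this response. These shares therefore describe the list and are not a test. The windows of PDIA4 (gene at chr7:149003051-149028505), PDIA6 (chr2:10783391-10837712) and DNAJB9 (chr7:108569874-108574850) held none of the 3 motifs.

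Of the libraries, 23 held between 9268041 and 12184749 reads on genes, and the polysome library of cercosporamide replicate 4 held 1592459. The members had between 28 and 31322 reads in a library. Levels are given as CPM, the counts of a gene scaled to the normalized size of the library. The markers of this line, KRT7, KRT8, KRT18, KRT19, EPCAM and VIM, summed to between 6170 and 24300 CPM. KRT8, KRT18, KRT19 and VIM made up nearly all of that sum. KRT7 was at 15.3 to 38.3 CPM and EPCAM at 5.19 to 12.5 CPM in total RNA. The sums for acinar, islet, fibroblast and erythroid markers stayed at or below 18.6 CPM. Of the leukocyte markers reported here, PTPRC and CD3E had no read in any library, and CD68, also a gene of lysosomes, was at 443 to 858 CPM in total RNA.

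The lectin chaperone gene CALR, HSPA5 and PDIA4 led the total RNA of DMSO-treated cells, and XBP1 and DNAJB9 came last. Per kilobase of the canonical transcript, the median level over the 4 DMSO replicates was 241 CPM for CALR, 225 for HSPA5 and 222 for PDIA4. HSP90B1 followed at 128, PDIA6 at 101, CANX at 85.8 and SDF2L1 at 64.9 CPM per kilobase. HERPUD1 (21.5), DNAJB9 (12.5) and XBP1 (11.2) made up the low end of the same scale. Among neighbours in this order, only PDIA4 and HSP90B1 had ranges that did not overlap (169 to 270 against 99.5 to 146 CPM per kilobase). The reads of some members are uncertain, because a read with several alignments was counted at each of them. The processed pseudogene HSPA5P1 held 105 to 636 reads and HSP90B2P 12 to 99, whereas the genes that overlap HSP90B1, CALR, CANX and PDIA6 and were looked up in the table held at most 9 reads. Gene counts also cannot separate the unspliced from the IRE1-spliced mRNA of XBP1. In RNA from bulk cultures, fewer cells that use a gene and less RNA of the gene per cell cannot be told apart, and CPM gives a share of the library and not an amount per cell.

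Replicate 3 stood apart for the stress-responsive members, and values without it, or without its DMSO libraries, stand beside several but not all results of these genes. In DMSO total RNA, HSPA5 was at 660, 505, 2716 and 1103 CPM in replicates 1 to 4. HERPUD1 was at 56.3, 36.5, 305 and 66.6 CPM in the same libraries. XBP1 was at 22.6, 17.5, 58.6 and 15.9 CPM. All 3 genes were highest in replicate 3, and for XBP1 and HERPUD1 replicate 3 was the highest in 6 of the 6 groups, for DNAJB9 in 5 and for HSPA5 in 4. SDF2L1, in contrast, was lowest in replicate 3 in 6 of 6 groups, at 28.4 against 52.1 to 62.4 CPM in DMSO total RNA. CALR was lowest there in 5 groups and PDIA4 in 4. Replicate 2 held the lowest HSPA5 in 6 of 6 groups and the lowest HERPUD1 in 5. The genes of the PERK and ATF4 arm of the stress response, such as DDIT3 and TRIB3, were highest in replicate 3 of DMSO total RNA for 8 of 8 genes. What set replicate 3 apart was not tested.

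**Figure D1:**
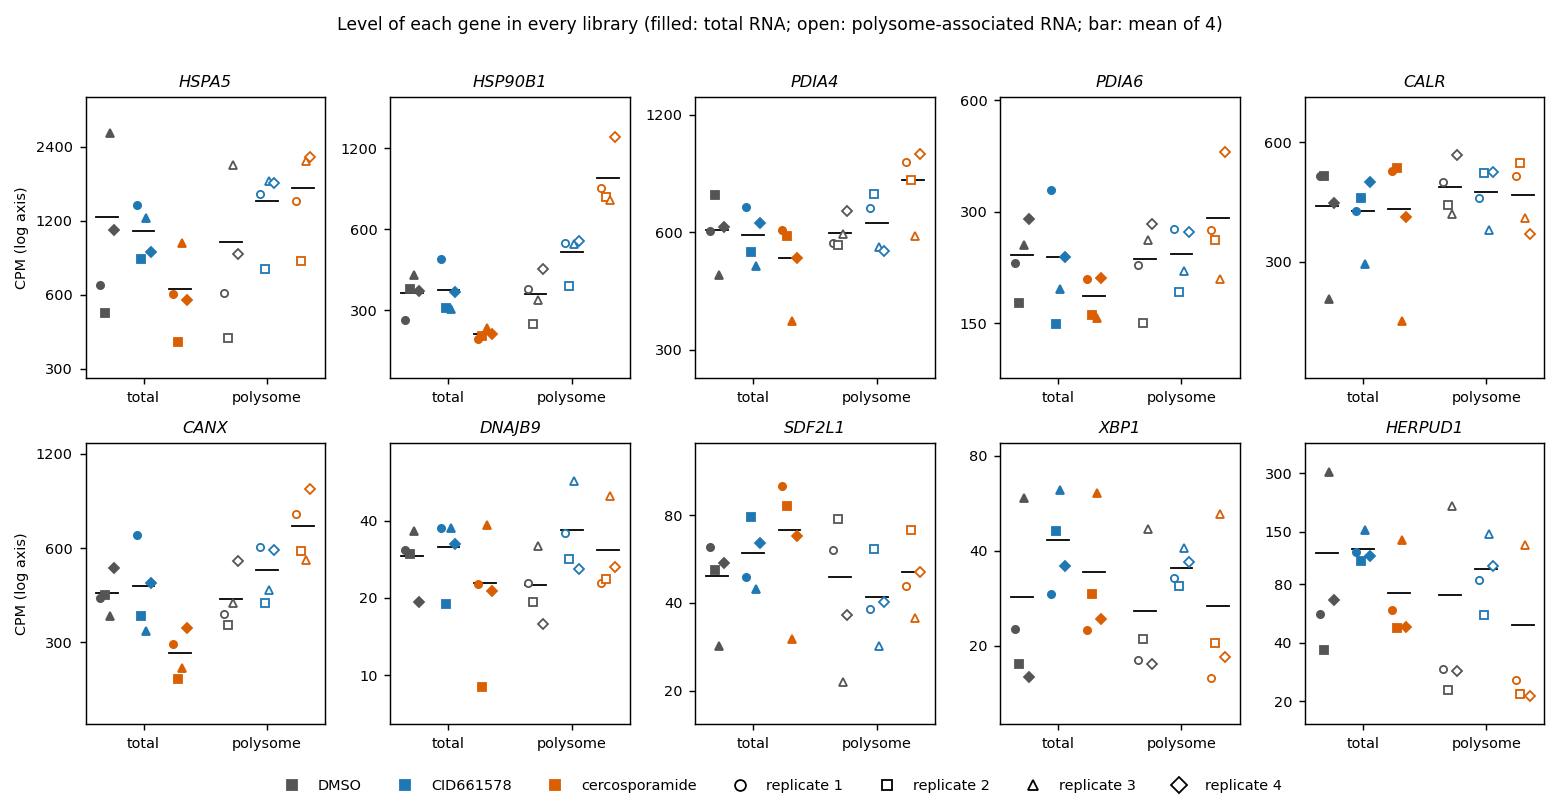
Level of the 10 genes in every library in CPM on log axes, with total RNA as filled and polysome-associated RNA as open symbols, colours for the treatments, symbol shapes for the replicates and a bar at the mean of 4. HSPA5 in DMSO total RNA runs from 505 to 2716 CPM, and HSP90B1 in cercosporamide polysome-associated RNA (768 to 1323 CPM) lies above all its other groups.

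**Figure D2:**
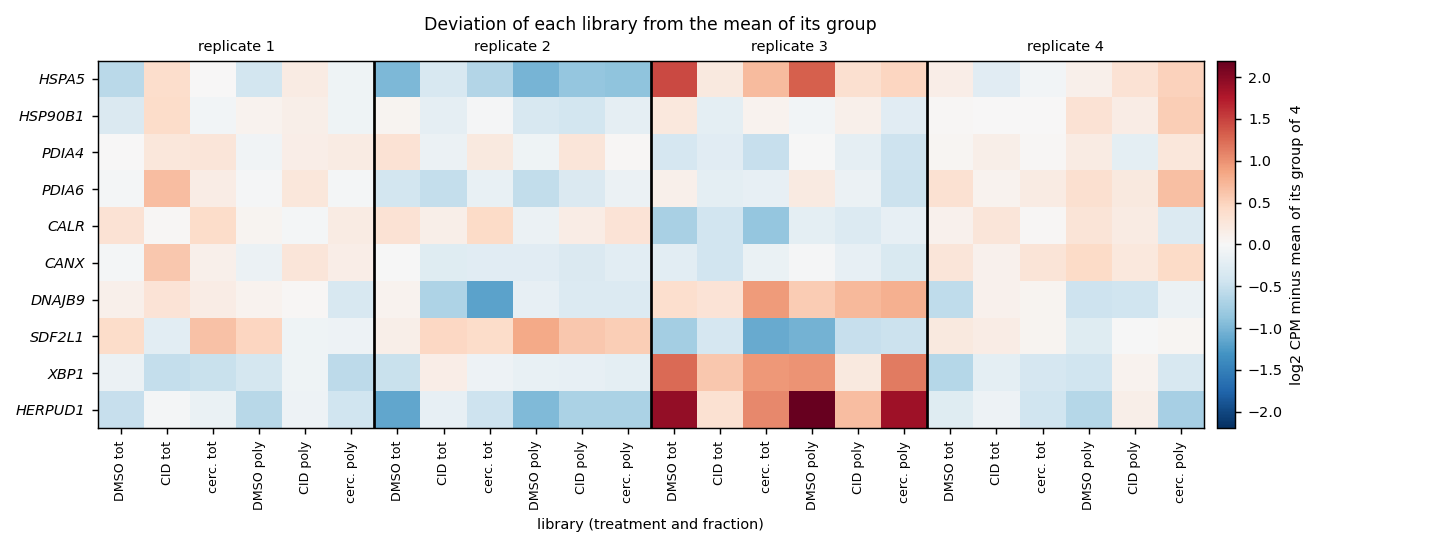
Deviation of each of the 24 libraries from the mean of its group of 4 in log2 CPM, with genes in rows, libraries in columns sorted by replicate, and red above and blue below the mean. The block of replicate 3 is red for XBP1 and HERPUD1 and blue for SDF2L1 in all 6 libraries.

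With DMSO alone, 2 of the 10 members, HERPUD1 and DNAJB9, passed the test of polysome-associated against total RNA (adjusted p below 0.15 and over 1.2-fold), both lower in polysomes, where 29.6% of all tested genes were called lower and 26.4% higher. The median log2 difference of the members was -0.07 and that of all genes -0.01. HERPUD1 differed by log2 -0.95, -0.69, -0.59 and -1.22 in the 4 DMSO plates, so all 4 were on the same side. Its fitted log2 difference was -0.87 (SE 0.178, adjusted p = 0.000359, edgeR quasi-likelihood test), and -0.87 (adjusted p = 0.00278) without replicate 3. DNAJB9 was at log2 -0.42, -0.63, -0.19 and -0.28, and its fitted value of -0.38 (SE 0.208) had an adjusted p of 0.145 in edgeR. That call for DNAJB9 was lost under every alternative tried, while that for HERPUD1 was lost only when the terms for replicates and plates were both removed (adjusted p = 0.444 in edgeR). Other members passed under single alternatives. CALR was called higher with TMM within each fraction (log2 0.48, adjusted p = 0.0221, against 0.20 and 0.344) and without the polysome library of cercosporamide replicate 4 (0.28, adjusted p = 0.145), and SDF2L1 was called lower with the GC correction (-0.46, adjusted p = 0.0336, against -0.11 and 0.682, all edgeR).

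Cercosporamide shifted the mRNAs of 6 of the 10 members towards polysomes relative to their total RNA. How far the ratio of polysome-associated to total RNA differs from that with DMSO is called here the change in translational efficiency (TE), and a gene was called at an adjusted p below 0.15 and a change over 1.2-fold. HSP90B1, HSPA5, CANX, DNAJB9, PDIA6 and PDIA4 rose in TE, none fell, and CALR, SDF2L1, XBP1 and HERPUD1 did not pass. The share of all 12058 tested genes called higher was 15.8%. The median log2 TE change was 0.69 over the 10 members and -0.00 over all genes.

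HSP90B1, the Hsp90 of the endoplasmic reticulum, showed the largest change of the members. Its log2 ratio of polysome to total CPM was 0.38, -0.43, -0.31 and 0.28 in the DMSO plates. With cercosporamide it was 1.85, 1.71, 1.57 and 2.43, and the groups did not overlap. The TE change was 3.76-fold (log2 1.91, SE 0.248, adjusted p = 5.16e-05, edgeR), larger than that of 99.2% of the tested genes. HSPA5, whose product BiP is the Hsp70 of this organelle, had log2 ratios of -0.11, -0.33, -0.42 and -0.33 with DMSO and of 1.25, 1.10, 1.11 and 1.93 with cercosporamide. These too did not overlap, and the spread between DMSO plates (SD 0.13) was narrow although HSPA5 levels differed widely between replicates. TE of HSPA5 rose 3.14-fold (log2 1.65, SE 0.252, adjusted p = 0.000213, edgeR). Without DMSO replicate 3, a fit added after its values were seen, the log2 TE change of HSPA5 was 1.59 (adjusted p = 0.0026, edgeR). The call for HSPA5 was lost when the terms for replicates and plates were both removed (adjusted p = 0.153 in edgeR). Both genes had their highest cercosporamide ratio in replicate 4, whose polysome library was shallow. Without that library the log2 TE change was 1.77 for HSP90B1 (adjusted p = 0.00051) and 1.51 for HSPA5 (adjusted p = 0.00117, both edgeR).

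Of the lectin chaperone genes, CANX rose and CALR did not pass. CANX, which encodes the membrane-bound calnexin, had log2 ratios of -0.17, -0.32, 0.14 and 0.07 with DMSO. With cercosporamide the ratios were 1.38, 1.35, 1.14 and 1.47, an even rise in all 4 plates. The TE change of CANX was 2.65-fold (log2 1.40, SE 0.23, adjusted p = 0.000346, edgeR). Without the shallow polysome library of replicate 4 it was log2 1.38 (adjusted p = 0.00131, edgeR). CALR, which encodes the soluble calreticulin with the same role, had ratios of -0.05, -0.24, 0.71 and 0.40 with DMSO and of -0.04, 0.04, 0.86 and -0.14 with cercosporamide. These ranges overlapped almost completely. The fitted log2 change of CALR was -0.02, with a 95% interval from -0.51 to 0.47. With a correction for the GC content of genes the values came closer, at 0.27 for CALR (adjusted p = 0.477) and 0.80 for CANX (adjusted p = 0.0107, both edgeR), and the difference between these genes was not tested.

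The disulfide isomerase genes had smaller fitted changes. PDIA4 was at log2 ratios of -0.11, -0.42, 0.35 and 0.13 with DMSO and of 0.58, 0.48, 0.73 and 0.88 with cercosporamide. PDIA6 was at -0.02, -0.18, 0.04 and -0.04 with DMSO and at 0.43, 0.67, 0.35 and 1.13 with cercosporamide. Neither gene's groups overlapped. The TE changes were 1.6-fold for PDIA4 (log2 0.68, SE 0.248, adjusted p = 0.0621, edgeR) and 1.62-fold for PDIA6 (log2 0.69, SE 0.232, adjusted p = 0.0426, edgeR). Both calls were lost without replicate 2 (adjusted p = 0.226 and 0.193 in edgeR), without the shallow polysome library of replicate 4 (0.169 and 0.165) and when polysome-associated RNA was adjusted for total RNA in an analysis of partial variance (0.374 and 0.186), and that of PDIA6 also without replicate 4 (0.233). For PDIA6 the log2 change was -0.36 in total RNA (adjusted p = 0.52) and 0.35 in polysome-associated RNA (adjusted p = 0.211, both edgeR). Neither fraction was called alone. Buffering, by the study a change in total RNA without one in polysome association, was not tested here.

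Among the co-chaperones, DNAJB9 passed and SDF2L1 did not. DNAJB9, whose product ERdj4 is a J-domain partner of BiP, had ratios of log2 0.01, 1.38, 0.37 and 0.32 with cercosporamide, all above the DMSO plates given earlier. The fitted TE change was 1.85-fold (log2 0.89, SE 0.299, adjusted p = 0.0433, edgeR). It rested largely on replicate 2, whose total library held 8.99 CPM against 21.2 to 38.6 in the other cercosporamide replicates. Without replicate 2 the log2 change was 0.52 (adjusted p = 0.379), with the GC correction it was 0.22 (adjusted p = 0.659), and without replicate 3 it was 0.98 (adjusted p = 0.0747, all edgeR). Its total RNA also moved more (log2 -0.47) than its polysome-associated RNA (0.40). SDF2L1, which holds BiP and J-domain proteins in complexes, had ratios between -1.14 and 0.24 with cercosporamide and between -0.60 and 0.57 with DMSO, and a fitted change of -0.30 (95% interval -0.89 to 0.29).

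XBP1 and HERPUD1, the transcription factor and the degradation component, did not pass. XBP1 was at log2 ratios of -0.33, 0.27, -0.32 and 0.14 with DMSO and of -0.51, -0.51, -0.22 and -0.39 with cercosporamide. HERPUD1 was at -1.19, -1.12, -0.08 and -1.18 with cercosporamide, where replicate 3 was far above the others. The fitted log2 TE changes were -0.33 for XBP1 (95% interval -0.91 to 0.25) and -0.01 for HERPUD1 (-0.53 to 0.51). Without replicate 3 they were -0.53 (adjusted p = 0.31) and -0.24 (adjusted p = 0.637, both edgeR).

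**Figure D3:**
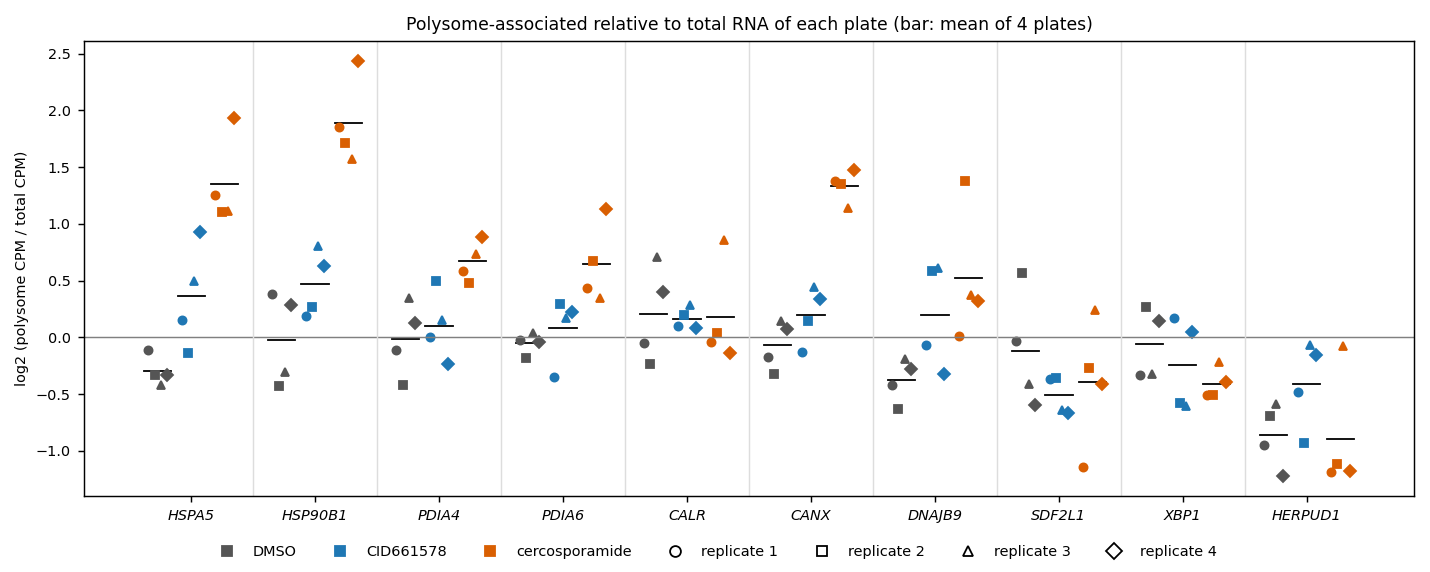
Log2 ratio of polysome CPM to total CPM in each of the 12 plates for the 10 genes, with colours for the treatments, symbol shapes for the replicates and a bar at the mean of 4 plates. The cercosporamide plates of HSPA5 (1.10 to 1.93), HSP90B1 (1.57 to 2.43) and CANX (1.14 to 1.47) lie above all DMSO and CID661578 plates of the same gene.

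The TE rise with cercosporamide was made of higher polysome-associated RNA together with total RNA that leaned lower. In polysome-associated RNA, 5 of the 10 members rose, against 18.3% of all tested genes called higher (adjusted p below 0.15). HSP90B1 held 361, 268, 328 and 427 CPM in the DMSO polysome libraries and 852, 791, 768 and 1323 CPM with cercosporamide, with no overlap. The log2 change was 1.42 (SE 0.174, adjusted p = 1.27e-05, edgeR). CANX, at 371, 341, 400 and 544 CPM with DMSO and 770, 587, 550 and 924 CPM with cercosporamide, rose by log2 0.76 (SE 0.169, adjusted p = 0.00342, edgeR) and likewise did not overlap. HSPA5 went from 612, 401, 2026 and 876 CPM to 1437, 826, 2105 and 2174 CPM and was higher in 4 of 4 replicates. The groups overlapped, since DMSO replicates 3 and 4 lay above the lowest treated library. Its log2 change was 0.88 (SE 0.219, adjusted p = 0.00777), 1.17 (adjusted p = 0.00111) without DMSO replicate 3, and 0.74 (adjusted p = 0.306, all edgeR) without the replicate block. PDIA4 (log2 0.43, adjusted p = 0.107) and DNAJB9 (0.40, adjusted p = 0.139, both edgeR) passed narrowly, and without the replicate block 2 members, HSP90B1 and CANX, were called. With the GC correction CANX was no longer called (log2 0.32, adjusted p = 0.249, edgeR), and DNAJB9 turned to -0.11.

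In total RNA no member passed with cercosporamide (0 of 10 in edgeR, where 0.381% of all genes were called). An unadjusted p below 0.05 was seen for 3 members and for 1360 of all 12058 tested genes. CANX held 417, 426, 364 and 517 CPM with DMSO and 296, 230, 249 and 334 CPM with cercosporamide, and HSP90B1 277, 360, 407 and 353 against 235, 242, 258 and 246 CPM. Both genes were lower in 4 of 4 replicates without overlap of the groups. Their fitted log2 changes were -0.65 for CANX (SE 0.189, adjusted p = 0.226) and -0.51 for HSP90B1 (SE 0.195, adjusted p = 0.338, both edgeR). HSPA5 was at 603, 384, 972 and 572 CPM, lower than the DMSO library of the same number in 4 of 4 replicates, with a log2 change of -0.81 (SE 0.265, adjusted p = 0.279, edgeR). Without DMSO replicate 3 that value was -0.45 (adjusted p = 0.675, edgeR). DESeq2 called 2 members lower, HSPA5 (adjusted p = 0.138) and CANX (0.088). The other 7 members lay between log2 -0.47 (DNAJB9) and 0.47 (SDF2L1).

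**Figure D4:**
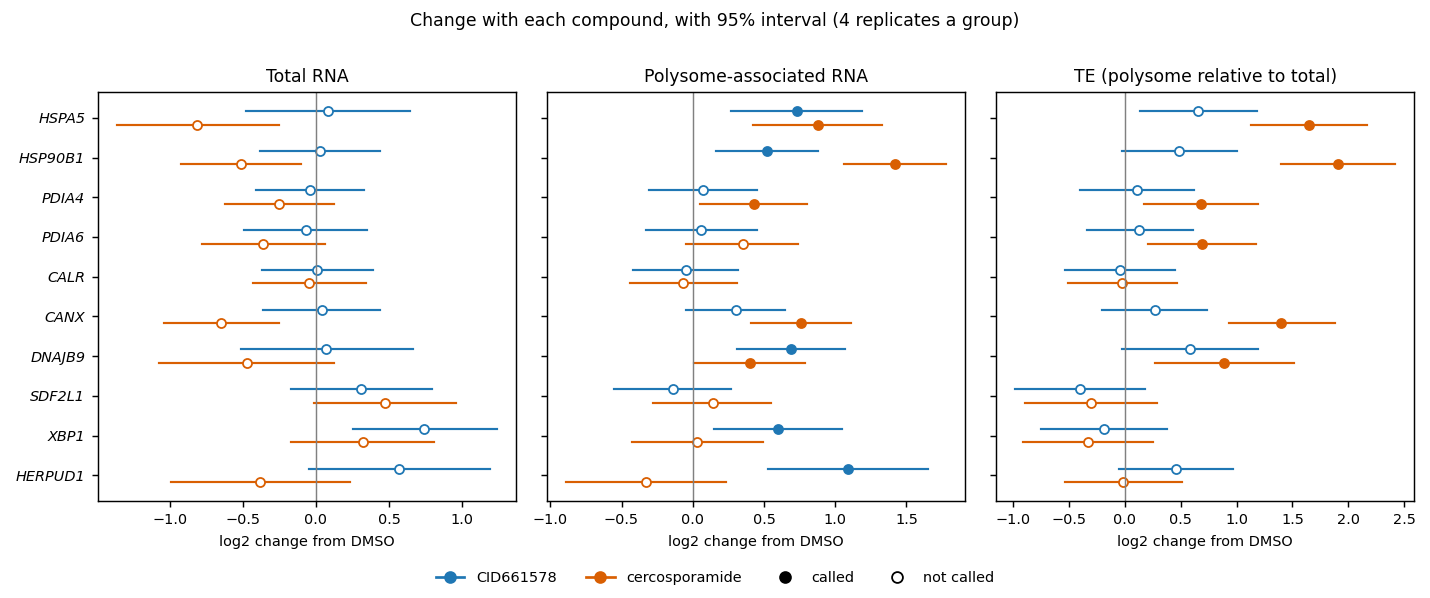
Log2 change from DMSO of the 10 genes in total RNA, in polysome-associated RNA and in TE for CID661578 and cercosporamide, as the fitted value with its 95% interval, filled where the gene was called. In TE the cercosporamide points of HSP90B1 (1.91), HSPA5 (1.65) and CANX (1.40) stand to the right of zero, and no CID661578 point is filled.

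CID661578 left the TE of every member below the threshold in the count model used here. None of the 10 was called (0 in edgeR, against 0.207% of all genes). An unadjusted p below 0.05 was seen for 1 member and for 1069 of all 12058 tested genes. The median log2 TE change was 0.20 over the members and 0.03 over all genes. HSPA5 had log2 ratios of 0.15, -0.14, 0.50 and 0.93 with CID661578, higher than the DMSO plate of the same number in 4 of 4 replicates. The DMSO and CID661578 plates overlapped, and the fitted log2 change of 0.66 (95% interval 0.14 to 1.18) had an adjusted p of 0.489 in edgeR, and was 0.54 (adjusted p = 0.742) without replicate 3. HSP90B1 had a fitted change of 0.49 (-0.02 to 1.00) and DNAJB9 of 0.58 (-0.02 to 1.19), so changes of the size seen for the isomerase genes with cercosporamide lie within these intervals. In counts simulated for this comparison over 11748 genes, a log2 TE change of 1.5 was called for 80 of 100 genes and one of 0.75 for 24 of 100. The simulated libraries held no replicate, plate, fraction or GC effects, and low-level genes were not among those changed. These shares are therefore not the power for the 10 members. The study used another method, anota2seq, and reported many mRNAs with altered translational efficiency shared by both compounds. The 0.207% therefore holds only for the count model used here.

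In polysome-associated RNA, 5 of the 10 members rose with CID661578, against 6.16% of all genes called higher. HERPUD1 held 29.2, 22.7, 203 and 28.6 CPM with DMSO and 83.9, 55.9, 145 and 99.8 CPM with CID661578. It was higher in replicates 1, 2 and 4 and lower in replicate 3, where the DMSO level was already high. The log2 change was 1.09 (SE 0.269, adjusted p = 0.0284, edgeR), and without DMSO replicate 3 it was 1.34 (adjusted p = 0.0142). HSPA5, at 1541, 760, 1745 and 1710 CPM, showed the same split between replicates, with a log2 change of 0.73 (SE 0.219, adjusted p = 0.0704), or 1.03 (adjusted p = 0.0104, all edgeR) without DMSO replicate 3. DNAJB9 (35.8, 28.4, 57.1 and 26.0 CPM) and HSP90B1 (532, 369, 528 and 543 CPM) were higher in 4 of 4 replicates. Their log2 changes were 0.69 (SE 0.182, adjusted p = 0.0424) and 0.52 (SE 0.171, adjusted p = 0.0968, both edgeR). XBP1, at 32.9, 30.9, 40.8 and 36.9 CPM against 18.0, 21.1, 46.9 and 17.5 with DMSO, rose by log2 0.60 (SE 0.217, adjusted p = 0.13), or 0.65 (adjusted p = 0.241, both edgeR) without DMSO replicate 3. These calls depended on the pairing of replicates, since 0 of the 5 remained without the replicate block (adjusted p from 0.469 to 0.867, edgeR). Leaving out DMSO replicate 3 kept 2 of the 5, HSPA5 and HERPUD1, leaving out single replicates kept 1 to 3, and the GC correction kept HERPUD1 alone.

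No member passed in total RNA with CID661578 either (0 of 10 in edgeR, against 0.448% of all genes). An unadjusted p below 0.05 was seen for 1 member and for 864 of all 12058 tested genes. XBP1 was at 29.1, 46.3, 62.4 and 35.7 CPM, higher than the DMSO library of the same number in 4 of 4 replicates by log2 0.36, 1.40, 0.09 and 1.16. Its fitted log2 change of 0.74 (SE 0.237) had an adjusted p of 0.404, and 0.0679 with the GC correction, and without replicate 3 it was 0.97 (adjusted p = 0.235, all edgeR). HERPUD1 was at 117, 106, 152 and 112 CPM, with a log2 change of 0.57 (adjusted p = 0.726) that became 1.10 (adjusted p = 0.0572) without replicate 3, both in edgeR. The chaperone and isomerase genes HSPA5, HSP90B1, PDIA4, PDIA6, CALR, CANX and DNAJB9 had fitted changes between -0.07 and 0.08. For HSPA5 the replicates disagreed, with log2 changes of 1.07, 0.73, -1.14 and -0.29. Its fitted change was 0.50 without replicate 3 (adjusted p = 0.764) and 0.41 without DMSO replicate 3 (adjusted p = 0.853, both edgeR). Of the 8 genes of the PERK and ATF4 arm, 7 rose in total RNA, where 0.315% of all genes were called higher. Among them were DDIT3 (log2 1.90, adjusted p = 0.00551) and TRIB3 (2.48, adjusted p = 0.0135, both edgeR). Both were higher in replicates 1, 2 and 4. In replicate 3, DDIT3 was at 518 CPM against 352 with DMSO, TRIB3 at 250 against 228 and SESN2 at 86.9 against 117. The DMSO and CID661578 ranges of DDIT3 and TRIB3 overlapped. Without the replicate block, 5 of all tested genes were called in total RNA with CID661578, 3 of them higher. The 7 calls therefore did not all remain.

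Set side by side, the TE changes of HSPA5, HSP90B1 and CANX were smaller with 40 µM CID661578 than with 5 µM cercosporamide. These were the 3 of 10 members for which the difference between compounds passed, all lower with CID661578, against 7.57% of all genes called in that direction. The difference in log2 TE change was -1.42 for HSP90B1 (SE 0.247, adjusted p = 0.00541), -1.14 for CANX (SE 0.23, adjusted p = 0.00822) and -0.99 for HSPA5 (SE 0.251, adjusted p = 0.0225, all edgeR). PDIA6 (-0.56, adjusted p = 0.152) and PDIA4 (-0.57, adjusted p = 0.177) missed the threshold. The other 5 members differed by -0.31 to 0.46, with the interval of HERPUD1 (-0.06 to 0.99) the farthest above zero. The compounds share the DMSO libraries, whose values cancel in this difference. Without DMSO replicate 3 it was -1.43 for HSP90B1, -1.14 for CANX and -0.99 for HSPA5. The difference for HSPA5 was not called without replicate 2 (adjusted p = 0.181, edgeR).

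Beyond the 10 members, 123 other genes of 9 endoplasmic reticulum lists were tested. With cercosporamide, 26 rose and 15 fell in TE, so 21.1% were called higher where 15.8% of all genes were, and 12.6% of all genes were called lower. In the Hsp70 cycle, which serves BiP, 4 of 11 rose and 0 fell, led by SEC63 (log2 1.35, SE 0.254, adjusted p = 0.00103). Of the isomerases and oxidases, 5 of 14 rose and 1 fell, led by PDIA3 (1.25, SE 0.227, adjusted p = 0.000804), the isomerase that works with calnexin and calreticulin. In the N-glycan and calnexin cycle 3 of 10 rose and 0 fell, led by CLGN (2.00, SE 0.397, adjusted p = 0.00159), a relative of calnexin. These are the lists closest to the members. The shares called higher were 36.4%, 35.7% and 30%, each resting on 3 to 5 genes, and 28.4% of all genes were called in either direction. The median log2 TE changes were 0.18, 0.29 and 0.04, against -0.00 over all genes. The lists were not tested.

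The lists of protein entry and degradation held calls in both directions with cercosporamide, as all genes did. Of the translocon and signal peptidase genes 6 of 24 rose and 4 fell, led by SRP54 (log2 1.58, SE 0.273, adjusted p = 0.000596), a subunit of the signal recognition particle. The oligosaccharyltransferase, which attaches N-glycans, had 2 of 11 up and 3 down, led by its catalytic subunit STT3B (1.37, SE 0.251, adjusted p = 0.00083). In endoplasmic reticulum-associated degradation 4 of 25 rose and 3 fell, close to the shares of all genes, led by UBXN4 (1.09, SE 0.243, adjusted p = 0.00383). Among the sensors and activators of the unfolded protein response 1 of 9, ATF6 (0.67, adjusted p = 0.0669), rose and 1 fell. The calcium handling list had 1 of 11 up, the calcium-binding CALU (0.74, adjusted p = 0.0282), and 1 down. The PERK and ATF4 arm had 0 of 8 up and 2 down, led by ATF4 (-0.67, adjusted p = 0.116; all values edgeR).

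With CID661578, 0 of these 123 genes passed in TE in edgeR. The largest changes in each list had adjusted p of 0.435 or more, and ran from log2 -0.84 for ATF6B to 1.07 for DNAJC25. MAN1B1 (-0.69) and SDF4 (-0.71) also leaned lower, and UBXN4 (0.70), SRP9 (0.75), ATF4 (0.57), TMX1 (0.48) and OSTC (0.39) leaned higher. In polysome-associated RNA 16 of the 123 rose and 3 fell with CID661578, 6 of the 16 in the PERK and ATF4 arm, where 6.16% of all genes were called higher and 3.96% lower.

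The members differ in base composition, and TE changes were lower at higher GC content, within the list as over all genes. GC content of the annotated transcripts (GENCODE v44) ran from 40.0% for DNAJB9, 40.6% for CANX and 41.3% for HSP90B1 to 54.8% for CALR and 65.8% for SDF2L1. Across the 10 members, TE change with cercosporamide and GC content had Pearson's r of -0.69 and Spearman's rho of -0.76. Across 11577 tested genes r was -0.52. These are descriptions across genes measured in the same libraries, and genes are not independent replicates. With the genes in 4 bins of equal size by GC content, 42.4% of the lowest bin were called higher in TE with cercosporamide, and 18.2%, 3.39% and 0.933% of the bins that follow. HSP90B1, CANX and DNAJB9 lie in the lowest bin (31.0% to 42.5% GC) and HSPA5 and PDIA6 in the next (42.5% to 48.0%). XBP1 (47.8%), which was not called, lies in that bin as well, and HERPUD1 (48.0%), not called either, at its upper border. The called PDIA4 (52.5%) and the uncalled CALR (54.8%) lie in the third bin, and SDF2L1 in the highest. When the trend of each library on GC content was removed, the log2 TE changes with cercosporamide were 1.49 for HSPA5, 1.37 for HSP90B1, 0.93 for PDIA4, 0.80 for CANX and 0.56 for PDIA6, all still called in edgeR (adjusted p from 5.66e-05 to 0.0783), and DNAJB9 was not. With CID661578 the same correlations were -0.78 and -0.76 over the members and r = -0.53 over all genes, with no member called. The part of base composition in these changes beyond this correction was not tested. The annotated 5′ leader of the canonical transcripts was 35 (SDF2L1) to 240 (DNAJB9) nucleotides long with a GC content from 63.6% (HSPA5) to 88.6% (SDF2L1).

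**Figure D5:**
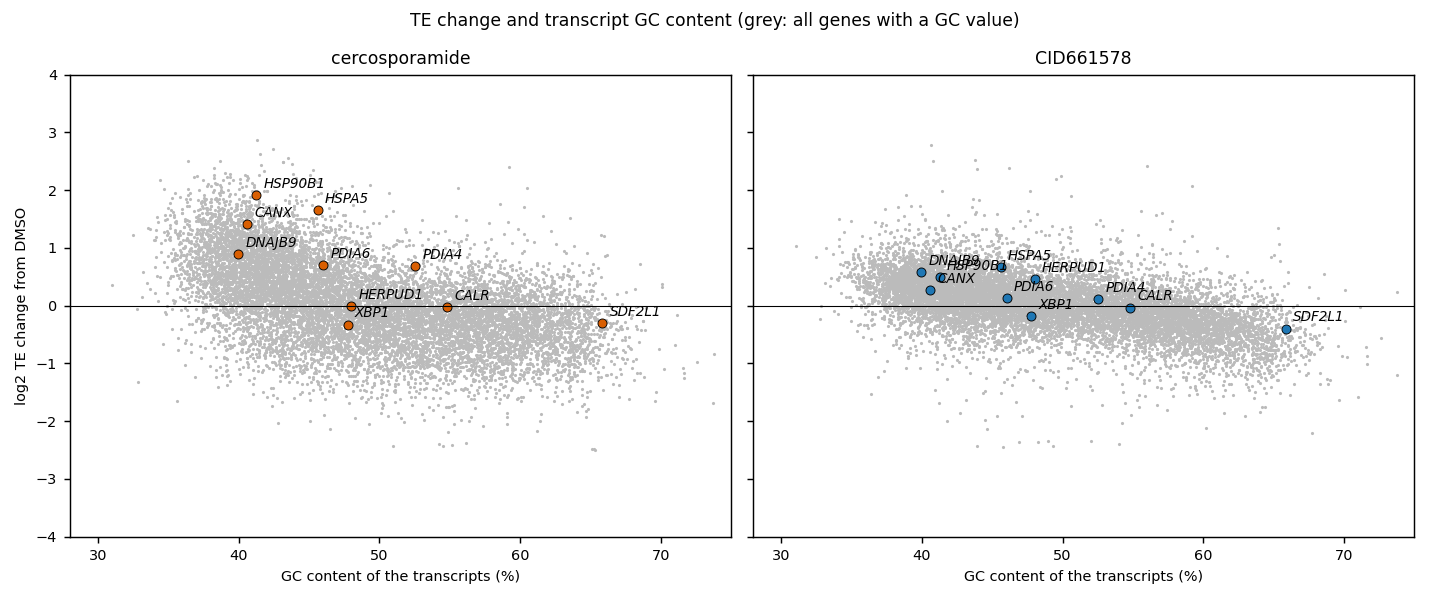
Log2 TE change from DMSO against GC content of the transcripts in percent for all 11577 genes with a value (grey) and the 10 members (coloured, named), with cercosporamide on the left and CID661578 on the right. Both clouds fall from low to high GC content, and HSPA5 (log2 1.65) and HSP90B1 (1.91) lie near the upper edge of the cercosporamide cloud.

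Across the 12 total RNA libraries, the members did not vary as 1 group. Pearson's r of log2 CPM had a median of 0.25 over the 45 pairs of members. The genes most like HSPA5 among the other 12057 were its processed pseudogene HSPA5P1 (r = 0.98), which can take reads of HSPA5, the mitochondrial Hsp70 gene HSPA9 (0.98), LOC100288073 (0.96), PNISR (0.94) and GARS1 (0.94), the glycyl-tRNA synthetase gene. Of the members only HERPUD1 (r = 0.91, rank 13) was among the best 100. HSP90B1 had r = 0.67 with HSPA5, whereas CALR (-0.68) and SDF2L1 (-0.73), which hold the elements also found at HSPA5 and HERPUD1, ran the other way. The points share the replicates, and the high libraries of replicate 3 enter all of these values.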

How the data were processed

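RNA from PANC-1 plates was sequenced as Smart-seq2 libraries. After removal of rRNA reads, the authors used HISAT2 for alignment to hg38 and featureCounts, at default settings, for counting on RefSeq genes. These settings ignore strand and give a multiply aligned read to each of its places. The values the authors deposited are these raw counts, without normalization. From them, only genes counted in every library were kept, the libraries were normalized with TMM, and changes were fitted in R 4.3.3 with edgeR 4.0.16 (glmQLFit and glmQLFTest), with Benjamini-Hochberg adjustment over all 12058 genes. Terms of the TE model were the plates, the replicates within polysomes and the compounds within polysomes, after the batch term that the study's methods name. In each fraction, replicate and treatment were fitted over 12 libraries. The standard error is the log2 change divided by the root of F. anota2seq was not installed, and its question was put to this count model. A gene was called at an adjusted p below 0.15, for ratios also over 1.2-fold.

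Libraries were grouped by the treatment and fraction in their labels. Each plate gave both fractions from 1 lysate, and the replicate is the batch in the study's methods. As a check, the deviations of treated and DMSO libraries of the same number correlated with r above 0.1 in 13 of 16 comparisons (-0.02 to 0.57). Over 276 pairs of libraries the smallest chi-square was 14.9 per degree of freedom, so none was a copy. The replicates are biological by the study's methods. The depth, from 1592459 to 12184749 reads, sets the precision of low counts. The 10 members and all lists were chosen with earlier results of these data known. Outside the members, the text names the called gene with the lowest p in each list and compound, or the gene with the largest change where none was called, and the 5 genes most like HSPA5; DDIT3, TRIB3 and the cell markers are named besides. The fit was tested on simulated data. GC content came from GENCODE v44, with a value for 96% of tested genes. DESeq2 1.42.0, limma 3.58.1 for the partial variance, other normalizations, filters and thresholds, fits without block or plates, a GC correction and omitted libraries were alternatives.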

Additional observations from a re-analysis of the deposited data

Results flagged for a closer look

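In 11 of 90 groups of 4 values the highest or lowest replicate lay farther from the nearest other than Dixon's 95% limit allows, which chance also passes in a small share of groups. Replicate 3 was the one in 9 of the 11. For HERPUD1 it held 305 CPM in DMSO total RNA, 203 CPM in DMSO polysome-associated RNA, 135 CPM in cercosporamide total RNA and 128 CPM in cercosporamide polysome-associated RNA, and its log2 ratio of polysome to total RNA with cercosporamide was -0.08. For XBP1 it held 58.6 CPM in DMSO total RNA, 46.9 CPM in DMSO polysome-associated RNA and 52.4 CPM in cercosporamide polysome-associated RNA. For DNAJB9 it held 49.9 CPM in cercosporamide polysome-associated RNA. The other 2 were HSP90B1, at 369 CPM in CID661578 polysome-associated RNA of replicate 2 and at 1323 CPM in the shallow cercosporamide polysome library of replicate 4. What set these libraries apart was not tested.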

How the results depend on the processing

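Of the 6 members called in TE with cercosporamide, HSP90B1 and CANX stayed called in all 18 alternatives, with log2 changes of 1.37 to 2.05 and 0.80 to 1.51, and HSPA5 in all but 1 (1.35 to 1.74). PDIA4 and PDIA6 lost their call in 5 alternatives each and DNAJB9 in 4. The number of members called in TE with cercosporamide was 2 without replicate block and plate terms, 3 in the analysis of partial variance and 3 to 6 when single replicates were left out, the lowest without replicate 2. Without the replicate block alone it was not changed by over 1.5 times. For the difference between compounds, 1 member was called without block and plate terms and 5 with the GC correction, which added PDIA4 and PDIA6.

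In total RNA, 1 member was called with CID661578 under the GC correction and 0 to 1 with single replicates left out, and 2 were called with cercosporamide in DESeq2, with no filter and with the GC correction. In polysome-associated RNA with CID661578, 0 members were called without the replicate block, with or without plate terms, 2 at an adjusted p below 0.05, 1 with the GC correction, 1 to 3 with single replicates left out and 2 without DMSO replicate 3, the last an alternative chosen after seeing the data. In polysome-associated RNA with cercosporamide, 2 were called without the replicate block, with or without plate terms. There, 3 were called with DMSO and that compound only, with DESeq2 size factors, with TMM without mitochondrially encoded genes, with filterByExpr, with no filter, at an adjusted p below 0.05, with the GC correction and without cercosporamide polysome replicate 4, and 3 to 5 with single replicates left out. DNAJB9 turned from log2 0.40 to -0.11 there under the GC correction, and the cause was not tested. For DMSO polysome-associated against total RNA, 1 was called without the replicate block, in DESeq2, with its size factors, with TMM without mitochondrially encoded genes, with filterByExpr, with no filter, at an adjusted p below 0.05, without single replicates and without DMSO replicate 3, and 0 without block and plate terms. There, 2 were called with TMM within each fraction and without cercosporamide polysome replicate 4 (CALR and HERPUD1) and with the GC correction (SDF2L1 and HERPUD1).

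Over all genes the number called ranged over the alternatives from 9 to 341 for TE with CID661578 (25 as reported), 957 to 3633 for TE with cercosporamide (3422), 18 to 2149 for the difference between compounds (1869), 5 to 240 and 0 to 789 for total RNA with CID661578 (54) and cercosporamide (46), and 69 to 1935 and 1921 to 4121 for polysome-associated RNA (1221 and 3881). Depth limits the precision where counts are low, and members had as few as 28 reads in a library.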
